A study of Mus musculus with 6 samples.

Results

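Genes of the NLRP4, NLRP9 and NLRP14 groups that are expressed in oocytes were examined, namely *Nlrp4a*, *Nlrp4b*, *Nlrp4c*, *Nlrp4e*, *Nlrp9a*, *Nlrp9b*, *Nlrp9c* and *Nlrp14*. They were chosen by gene symbol as oocyte NLRP genes outside the subcortical maternal complex, a protein assembly under the oocyte cortex, and the rule itself uses no measured value. All 8 were found among the 17577 genes of the expression tables, with 4 NLRP4 genes, 3 NLRP9 genes and *Nlrp14*. NLRP proteins combine an N-terminal pyrin domain, a central nucleotide-binding NACHT domain and C-terminal leucine-rich repeats. Some members of the family sense microbes or damage and assemble inflammasomes, whereas a reproductive branch is transcribed mainly in oocytes and early embryos. In the mouse, the NLRP4 and NLRP9 groups each expanded by gene duplication into several copies.

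Germinal vesicle (GV) oocytes, the fully grown oocytes arrested in meiotic prophase, were sequenced from 12-week-old mice of strain C57BL/6 J. Of 6 libraries, 3 came from mice labelled Bnc1tr/tr and 3 from wild-type (WT) mice. Bnc1tr/tr mice are homozygous for a frameshift allele that truncates basonuclin 1 (BNC1), a zinc finger protein of germ cells and stratified epithelia. The allele is carried in all cells of the animal, so ovarian somatic cells were mutant too. Per the methods of the study, littermates were compared, oocytes were punctured from antral follicles after females received pregnant mare serum gonadotropin, and each cDNA was made from a single oocyte with an oligo(dT) primer. The libraries of both genotypes thus shared strain, age, hormone priming and stage, and oligo(dT) priming records only transcripts with a poly(A) tail that the primer can bind. The study calls the replicates of a group biological, analysed in duplicate, and neither it nor the labels say which animal each library came from, so p-values measure the spread between these libraries.

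All 8 genes lay on chromosome 7 (GRCm38.p6). *Nlrp4c* (chr7:6045161-6105149), *Nlrp4b* (chr7:10687793-10730168), *Nlrp9b* (chr7:19991393-20062942) and *Nlrp4e* (chr7:23301192-23362277) were separated from one another by 3.24 to 9.26 Mb. *Nlrp9c* (chr7:26364691-26403700), *Nlrp4a* (chr7:26435113-26476142) and *Nlrp9a* (chr7:26535023-26574148) formed a cluster of 209 kb, with gaps of 31.4 and 58.9 kb. *Nlrp14* (chr7:107113455-107198103) lay 80.5 Mb further along. *Nlrp9c* was the gene on the minus strand, and the other 7 were on the plus strand. The longest coding transcripts held 863 codons in *Nlrp4b* and 978 to 1004 codons in the other 7 genes, in 9 to 11 exons.

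Coding sequences were closest between *Nlrp4c* and *Nlrp4e*, with 93.9% of aligned bases identical. *Nlrp4a* matched *Nlrp4c* at 86.3% and *Nlrp4e* at 85.9%, and *Nlrp4b* matched its 3 paralogs at 78 to 79%. Among NLRP9 genes, *Nlrp9a* and *Nlrp9c* matched at 87.7%, *Nlrp9a* and *Nlrp9b* at 84.2%, and *Nlrp9b* and *Nlrp9c* at 82.8%. *Nlrp14* matched the others at 59.8 to 63.1%. Such likeness bears on how reads were divided between paralogs. Of the 31-base words in *Nlrp4e* transcripts, 52.8% also occurred in transcripts of other genes, 42% in the pseudogene *Gm16443*, which was not analysed here. The share was 22.1% for *Nlrp4c* (15.4% with *Nlrp4e*), 12.3% for *Nlrp9a*, 11.9% for *Nlrp9b*, 8.01% for *Nlrp4a*, 6.3% for *Nlrp9c*, 0.396% for *Nlrp4b* and 0% for *Nlrp14*. The level of *Nlrp4e* is therefore uncertain, and that of *Nlrp4c* less so. The spans of *Nlrp4b*, *Nlrp4e* and *Nlrp9b* also overlapped those of *Gm45379*, of *Krt8-ps*, and of *Gm18877* and the antisense *n-R5s152*, respectively.

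To show how the duplicated copies resemble each other outside the coding part, the 150 bases before the transcription start are printed from RefSeq (GRCm38.p6), 5′ to 3′ on the strand of the gene. RefSeq promoter windows were matched for 7 of the 8 genes, and *Nlrp14* had no entry. *Nlrp4a* and *Nlrp4b* each had 2 windows, and the window sharing the longest run with another NLRP4 gene examined was used. Capitals mark the letters CCAAT, the core of the CCAAT box that the factor NF-Y binds, and the letters CANNTG, the E-box of basic helix-loop-helix factors, each searched on both strands. Where a CCAAT box runs into an E-box, the capitals run on. The NLRP4 sequences lie at chr7:26435464-26435613 (*Nlrp4a*, plus strand, before the second of 2 RefSeq starts), chr7:10687643-10687792 (*Nlrp4b*, plus strand), chr7:6045011-6045160 (*Nlrp4c*, plus strand) and chr7:23301042-23301191 (*Nlrp4e*, plus strand).
Nlrp4a: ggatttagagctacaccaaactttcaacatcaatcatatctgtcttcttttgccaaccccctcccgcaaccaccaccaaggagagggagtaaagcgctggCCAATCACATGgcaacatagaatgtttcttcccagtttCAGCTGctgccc
Nlrp4b: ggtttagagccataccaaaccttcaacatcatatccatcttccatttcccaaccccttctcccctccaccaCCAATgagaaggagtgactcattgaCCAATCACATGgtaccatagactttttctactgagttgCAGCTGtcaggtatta
Nlrp4c: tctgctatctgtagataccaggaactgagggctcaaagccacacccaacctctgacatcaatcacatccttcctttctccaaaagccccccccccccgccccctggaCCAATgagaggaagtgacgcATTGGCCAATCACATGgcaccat
Nlrp4e: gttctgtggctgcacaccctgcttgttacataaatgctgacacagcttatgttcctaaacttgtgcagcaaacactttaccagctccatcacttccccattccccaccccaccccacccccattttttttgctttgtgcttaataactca

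The NLRP9 sequences lie at chr7:26534873-26535022 (*Nlrp9a*, plus strand), chr7:20007873-20008022 (*Nlrp9b*, plus strand, before a start inside the span of the gene) and chr7:26403701-26403850 (*Nlrp9c*, minus strand).
Nlrp9a: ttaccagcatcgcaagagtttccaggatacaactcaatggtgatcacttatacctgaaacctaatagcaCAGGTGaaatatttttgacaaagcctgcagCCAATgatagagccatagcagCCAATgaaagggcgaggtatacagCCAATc
Nlrp9b: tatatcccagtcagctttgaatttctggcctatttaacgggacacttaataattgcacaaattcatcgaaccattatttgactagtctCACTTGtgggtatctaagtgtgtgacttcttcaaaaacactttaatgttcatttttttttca
Nlrp9c: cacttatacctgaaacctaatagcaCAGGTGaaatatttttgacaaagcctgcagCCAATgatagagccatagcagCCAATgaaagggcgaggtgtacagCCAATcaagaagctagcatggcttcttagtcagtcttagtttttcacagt

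*Nlrp9a* and *Nlrp9c*, which lie on opposite strands of the cluster, were 96.1% identical over 203 aligned bases of the 250 before their starts, with a shared run of 106 bases. Their 3 CCAAT boxes ended 46, 25 and 1 bases before the start in *Nlrp9a* and 90, 69 and 45 bases before it in *Nlrp9c*. *Nlrp9b* had no CCAAT in its window and matched its paralogs at 60.6 and 63.8%. Its window precedes a start inside the span of the gene, so it need not correspond in position to theirs. *Nlrp4a*, *Nlrp4b* and *Nlrp4c* matched each other at 76.1 to 78.2% and shared the 12 letters CCAATCACATGG, a CCAAT box that runs into an E-box. For *Nlrp4a* and *Nlrp4b* the window had been chosen for a long run shared within the NLRP4 genes, so this likeness is partly selected. The 12 letters were picked as the longest run that these genes share. These letters occurred in 6 of 32851 RefSeq windows (0.0183%), in *Nlrp4a*, *Nlrp4b*, *Nlrp4c*, *Dcxr* and *Oscp1*. All window counts here cover the 250 bases before a start. The *Nlrp4e* window matched those of the other NLRP4 genes at 57 to 60.9%, within the range between NLRP4 and NLRP9 windows, although its coding sequence was the closest to *Nlrp4c*. It held no E-box, and its CCAAT lay 224 bases before the start, outside the printed part. Single motifs were common, since 33.8% of all windows held CCAAT and 66.2% held CANNTG, whereas 3 or more CCAAT boxes, as in *Nlrp4c*, *Nlrp9a* and *Nlrp9c*, were held by 2.79%. The E-box of the form CAGCTG was found in *Nlrp4a* and *Nlrp4b* and in 13% of windows. These matches describe letters in a window and were not tested as binding sites.

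Levels are given in FPKM (fragments for each kilobase of a transcript and each M, or mega, of mapped fragments), which corrects for gene length. FPKM is a share of the fragments of a library, so less of a transcript and more of all others cannot be told apart. In WT oocytes the genes spanned from 872 ± 215 FPKM (SD, n = 3) for *Nlrp14* to 5.83 ± 2.27 FPKM for *Nlrp4c*. *Nlrp14*, whose loss in mothers is known to halt early embryos, ranked 119 among the 17577 genes by its WT mean. It was followed by *Nlrp9c* (455 ± 57.9 FPKM, rank 284), *Nlrp9a* (254 ± 53.8 FPKM, rank 532) and *Nlrp4a* (199 ± 9.25 FPKM, rank 684). *Nlrp4b* (168 ± 8.77 FPKM), *Nlrp9b* (141 ± 23.1 FPKM), *Nlrp4e* (38.4 ± 1.76 FPKM) and *Nlrp4c* came next. The library ranges of *Nlrp9a* and *Nlrp4a* overlapped, as did those of *Nlrp4b* and *Nlrp9b*, and the other neighbours in this order did not overlap. In Bnc1tr/tr oocytes *Nlrp14* and *Nlrp9c* still led, *Nlrp4a* stood above *Nlrp9a* with no overlap, and *Nlrp9b* and *Nlrp4b* overlapped. The plot of levels by library shows each value.

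**Figure D1:**
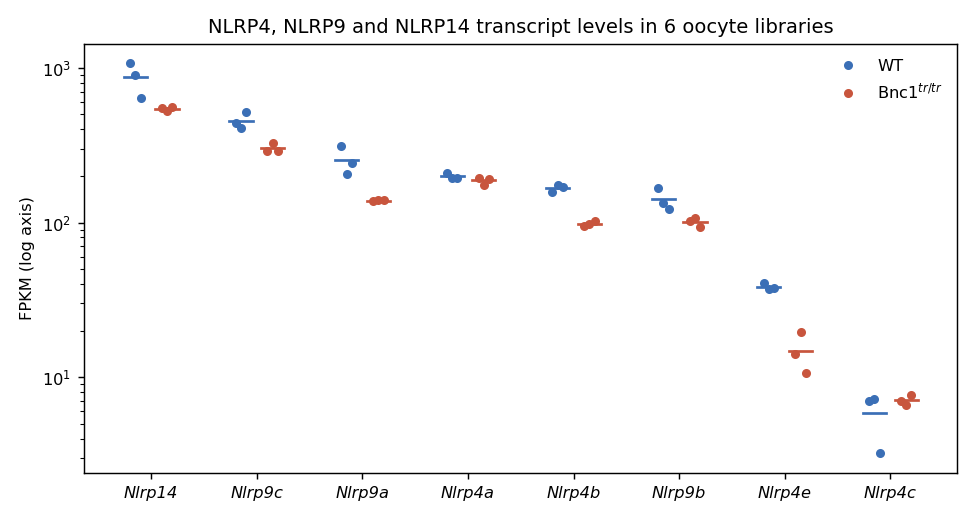
FPKM of the 8 NLRP genes (log axis) in the 3 Bnc1tr/tr and 3 WT libraries, a point per library and a bar at each group mean. *Nlrp14* was the highest in both genotypes (545 and 872 FPKM) and *Nlrp4c* the lowest (7.08 and 5.83 FPKM), and the Bnc1tr/tr libraries lay below the WT libraries in all but *Nlrp4a* and *Nlrp4c*.

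The comparison of the genotypes asks how the truncation of BNC1 bears on oocyte transcripts. *Bnc1* itself was at 9.04, 6.51 and 5.83 FPKM in Bnc1tr/tr replicates 1 to 3 and at 13.17, 12.54 and 16.23 FPKM in WT replicates 1 to 3 (log2 fold change -0.89 ± 0.20 SE, adjusted p = 0.009 by limma with Benjamini-Hochberg adjustment over all tested genes), with every Bnc1tr/tr library below every WT library. Estimated depth was 13.2 to 21.5 M fragments per library, and a value of 3 fragments on a transcript of 1 kb corresponded to 0.139 to 0.227 FPKM. At this depth each library held an estimated 22300 to 48800 fragments of *Nlrp14* but 235 to 444 of *Nlrp4c*, so *Nlrp4c* carries the largest relative counting error of the group. Markers of the oocyte (10 of 10 tested, summed 9040 to 9920 FPKM in Bnc1tr/tr and 9130 to 11500 FPKM in WT) were abundant in sum, with *Zp2* called lower and *Dazl* called higher in Bnc1tr/tr. *Ddx4* among them was at 10.79 to 20.75 FPKM.

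Of the 8 genes, 5 were lower in Bnc1tr/tr oocytes, 0 were higher and 3 were not called, where a call needs a Benjamini-Hochberg adjusted limma p under 0.05 together with a log2 change of more than 0.5 in size. Over all 10560 tested genes 7.68% were called lower and 24.1% higher, and among the 1282 with a WT mean of at least 100 FPKM 11.3% were called lower. All 8 passed the filter of a mean of at least 1 FPKM. The median log2 fold change was -0.61 over the 8 genes and 0.15 over all tested genes. In 6 of the 8 the Bnc1tr/tr libraries all lay below the WT libraries, a pattern held by 14.1% of tested genes, and in 0 did they all lie above, as they did in 32.7% of tested genes. At an unadjusted limma p under 0.05 the 8 genes gave 6 lower and 0 higher, beside 12.3% and 30.6% of tested genes. Without any 1 library other than WT replicate 3, 3 of the 8 were called lower, namely *Nlrp4e*, *Nlrp4b* and *Nlrp9a*. Together the 8 genes made up 0.212, 0.199 and 0.202% of the summed FPKM in Bnc1tr/tr and 0.358, 0.304 and 0.267% in WT. The median of all genes moved from 0.15 to -0.05 under median-ratio scaling, and that of the 8 genes from -0.61 to -0.83. Under that scaling all genes split into 1919 higher and 1542 lower, against 2547 and 811 as reported and 1637 and 1877 under quantile normalization.

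**Figure D2:**
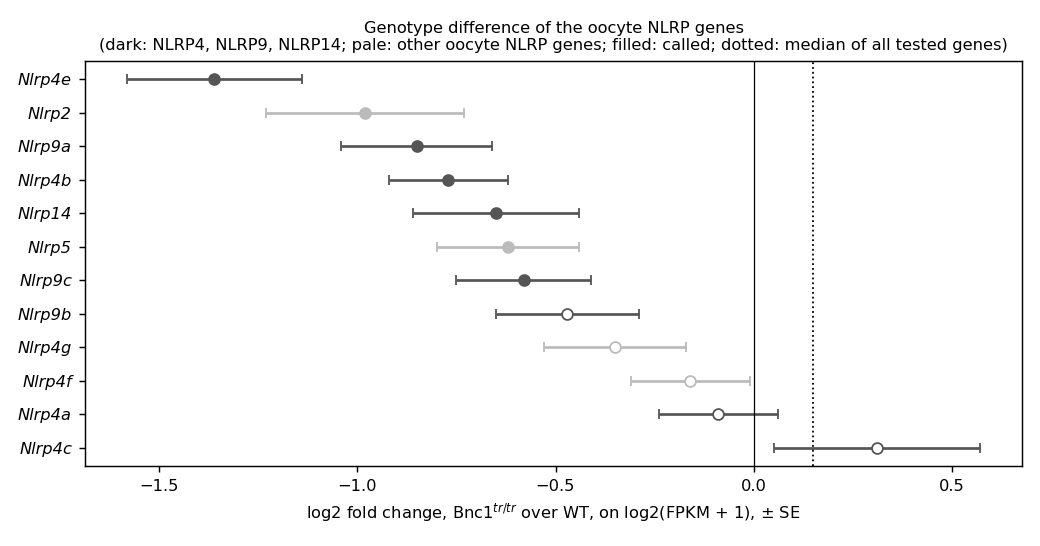
Log2 fold change of Bnc1tr/tr over WT on log2(FPKM + 1) with its SE for 12 oocyte NLRP genes, dark for the NLRP4, NLRP9 and NLRP14 genes and pale for the others, with filled points for called genes and a dotted line at the median of all tested genes (0.15). *Nlrp4e* (-1.36) lay lowest and *Nlrp4c* (0.31) highest.

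Among NLRP4 genes, *Nlrp4e* and *Nlrp4b* fell in Bnc1tr/tr oocytes, while *Nlrp4a* and *Nlrp4c* did not pass the test. *Nlrp4e* was at 14.18, 19.55 and 10.66 FPKM in Bnc1tr/tr replicates 1 to 3 and at 40.45, 37.18 and 37.69 FPKM in the WT replicates. The WT libraries were close together, with a coefficient of variation (CV, SD over mean) of 4.58%, and every Bnc1tr/tr library lay below them with a CV of 30.3%. Its log2 fold change of -1.36 ± 0.22 (SE; limma, Benjamini-Hochberg adjusted p = 0.0017) ranked 96 from the lowest of the 10560, and 2.45% of tested genes fell by more than 1 on this scale and were called. *Nlrp4b* was at 94.94, 98.28 and 102.19 FPKM in Bnc1tr/tr and at 158.63, 175.86 and 170.12 FPKM in WT. Both groups were tight and did not overlap, and the log2 fold change was -0.77 ± 0.15 (limma, adjusted p = 0.0051). *Nlrp4b* shared the fewest words with other genes among the NLRP4 copies examined.

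*Nlrp4a*, the most abundant of the 4 NLRP4 genes examined, was at 195.35, 176.06 and 190.05 FPKM in Bnc1tr/tr and at 209.83, 193.7 and 193.91 FPKM in WT. The groups overlapped, and the log2 fold change was -0.09 ± 0.15 (limma, adjusted p = 0.7). *Nlrp4a* lies between *Nlrp9c* and *Nlrp9a*, both of which were called lower. *Nlrp4c* was at 7.05, 6.58 and 7.62 FPKM in Bnc1tr/tr and at 7.03, 7.24 and 3.21 FPKM in WT. WT replicate 3 stood below the other 5 libraries, which lay between 6.58 and 7.62 FPKM. Its log2 fold change of 0.31 ± 0.26 (limma, adjusted p = 0.41) became -0.01 without that library and -0.03 under quantile normalization, so no direction can be given. The coding sequences of *Nlrp4c* and *Nlrp4e* were the closest of the group, and their log2 fold changes were 0.31 and -1.36, a difference that was not tested.

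All 3 NLRP9 genes had Bnc1tr/tr libraries below WT libraries, and *Nlrp9a* and *Nlrp9c* passed the test. NLRP9 proteins are known as oocyte NLRPs, and NLRP9B also as a sensor of viral RNA in intestinal epithelium. *Nlrp9a* was at 136.88, 138.98 and 139.81 FPKM in Bnc1tr/tr and at 312.82, 207.48 and 241.42 FPKM in WT. The Bnc1tr/tr libraries were the tightest of any member (CV 1.09%), whereas the WT libraries spread more (CV 21.2%). The log2 fold change was -0.85 ± 0.19 (limma, adjusted p = 0.0087). *Nlrp9c* was at 291.66, 328.4 and 290.85 FPKM in Bnc1tr/tr and at 439.86, 405.98 and 518.86 FPKM in WT. WT replicate 3 was its highest library, and the groups did not overlap. Its log2 fold change was -0.58 ± 0.17 (limma, adjusted p = 0.029), and no fit that left out 1 library called it (adjusted p from 0.05 to 0.086).

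*Nlrp9b* was at 102.28, 107.62 and 93.83 FPKM in Bnc1tr/tr and at 167.42, 133.68 and 123.19 FPKM in WT. The groups did not overlap, but the gap between the highest Bnc1tr/tr and the lowest WT library was smaller than the range within WT. The same held for the called genes *Nlrp9a*, *Nlrp9c* and *Nlrp14*. The log2 fold change of -0.47 ± 0.18 (limma, adjusted p = 0.074) missed both thresholds. It was called under median-ratio scaling (-0.69, adjusted p = 0.012) and without WT replicate 3 (-0.56, adjusted p = 0.041), in limma with Benjamini-Hochberg adjustment. *Nlrp9b* differs from its paralogs in having no CCAAT in the printed window. That window precedes a start inside the span of the gene, unlike those of *Nlrp9a* and *Nlrp9c*, and its role was not tested.

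*Nlrp14*, the most abundant of the 8, was at 551.43, 526.94 and 556.97 FPKM in Bnc1tr/tr and at 1068.11, 905.7 and 642.65 FPKM in WT. The Bnc1tr/tr libraries agreed within a CV of 2.93%, the WT libraries had a CV of 24.6%, and WT replicate 3 came nearest to the mutant values. The log2 fold change was -0.65 ± 0.21 (limma, adjusted p = 0.042). Without WT replicate 3 it was -0.85 (adjusted p = 0.0058, limma with Benjamini-Hochberg adjustment), and leaving out any other of the libraries ended the call, with adjusted p from 0.093 to 0.13. It was also not called with a pseudocount of 0.1, with no filter (adjusted p = 0.067 for both) and under quantile normalization (adjusted p = 0.087). No 31-base word of its transcripts occurred in another gene.

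**Figure D3:**
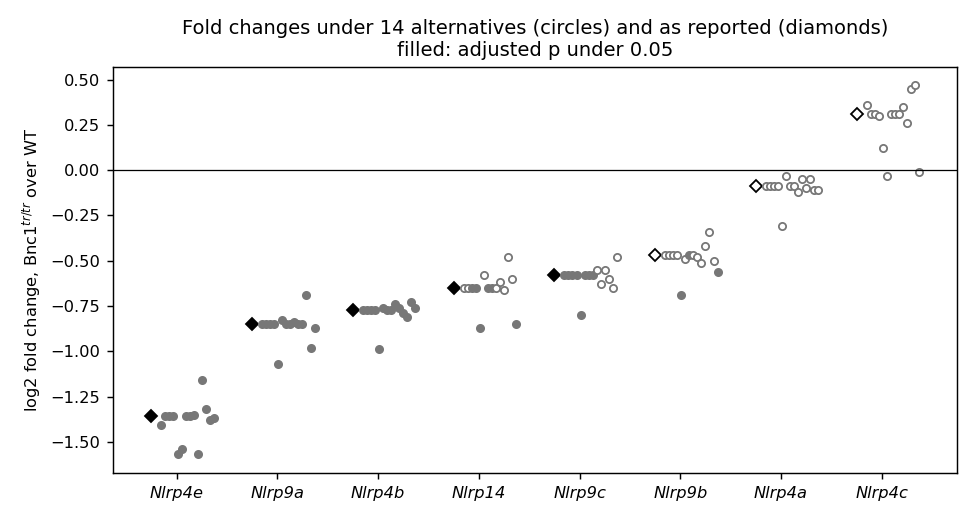
Log2 fold change of each NLRP gene as reported (diamond) and under 14 alternatives (circles), filled where the adjusted p of limma was under 0.05. *Nlrp4e*, *Nlrp9a* and *Nlrp4b* stayed filled throughout, *Nlrp14* in 6 and *Nlrp9c* in 8 of 14, and *Nlrp4a* and *Nlrp4c* were open in every one.

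Because family members are compared within a library, their shares of the family sum do not change when all values of a library are multiplied by a common factor. Quantile normalization is no such scaling. Here the NLRP4 sum covers *Nlrp4a*, *Nlrp4b*, *Nlrp4c* and *Nlrp4e*, and the NLRP9 sum covers *Nlrp9a*, *Nlrp9b* and *Nlrp9c*. Left out of the NLRP4 sum were *Nlrp4f* (mean 244 FPKM in Bnc1tr/tr and 274 FPKM in WT) and *Nlrp4g* (73.3 and 94.4 FPKM). The NLRP4 sum was 307.5 ± 6.11 FPKM (SD, n = 3) in Bnc1tr/tr and 411.6 ± 5.87 FPKM in WT. The NLRP9 sum was 543.4 ± 27.5 FPKM in Bnc1tr/tr and 850.2 ± 91.1 FPKM in WT. *Nlrp4a* made up 62.7, 58.6 and 61.2% of the NLRP4 sum in Bnc1tr/tr and 50.4, 46.8 and 47.9% in WT. *Nlrp4e* made up 4.55, 6.51 and 3.43% in Bnc1tr/tr and 9.72, 8.98 and 9.31% in WT. Neither share overlapped between the genotypes, nor did those of *Nlrp4b* (32 ± 1.35% and 40.9 ± 2.38%) and *Nlrp4c* (2.3 ± 0.136% and 1.41 ± 0.536%). The makeup of the NLRP4 sum thus differed between the genotypes in these libraries. Shares of a sum are tied to each other, so a fall of some parts raises the shares of others. In the NLRP9 family, *Nlrp9c* made up 55.8 ± 1.13% in Bnc1tr/tr and 53.6 ± 5.5% in WT, *Nlrp9a* 25.5 ± 1.26% and 29.7 ± 3.73%, and *Nlrp9b* 18.6 ± 0.694% and 16.7 ± 2.37%. Only the *Nlrp9a* share of these had no overlap between the genotypes (24.2 to 26.7% and 27.3 to 34%).

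**Figure D4:**
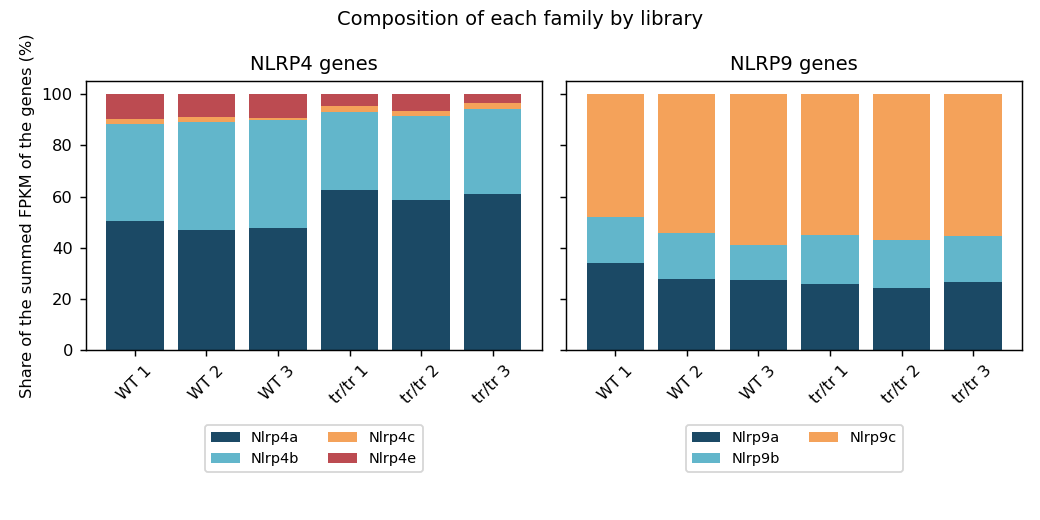
Share of each gene in the summed FPKM of the NLRP4 or NLRP9 genes examined, without *Nlrp4f* and *Nlrp4g* (percent, a stacked bar per library from 0 to 100). The *Nlrp4a* part was 58.6 to 62.7% in Bnc1tr/tr and 46.8 to 50.4% in WT libraries, and the *Nlrp9c* part overlapped between genotypes.

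Ratios within a library, whose pairs were chosen after the values were seen and which are given with no test, are a further description of that makeup. The *Nlrp4e* to *Nlrp4a* ratio was 0.193, 0.192 and 0.194 in the WT libraries and 0.0726, 0.111 and 0.0561 in the Bnc1tr/tr libraries. The *Nlrp4b* to *Nlrp4a* ratio was 0.847 ± 0.0803 in WT and 0.527 ± 0.0372 in Bnc1tr/tr (SD, n = 3), also with no overlap. *Nlrp14* stood at 3.31 to 5.09 times *Nlrp4a* in WT and at 2.82 to 2.99 times in Bnc1tr/tr. *Nlrp9b* to *Nlrp9c* overlapped (0.316 ± 0.0725 in WT and 0.334 ± 0.015 in Bnc1tr/tr).

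The other oocyte NLRP genes were *Nlrp2*, *Nlrp4f*, *Nlrp4g* and *Nlrp5*, of which 2 were called lower and 0 higher (median log2 fold change -0.48). *Nlrp2*, which encodes a maternal-effect protein, was at 54.8, 40.21 and 35.91 FPKM in Bnc1tr/tr and at 106.5, 97.08 and 60.22 FPKM in WT (log2 fold change -0.98 ± 0.25, limma adjusted p = 0.018). *Nlrp5*, which encodes the maternal-effect antigen MATER, was at 182.94, 186.08 and 189.26 FPKM in Bnc1tr/tr and at 310.84, 318.24 and 235.67 FPKM in WT (log2 fold change -0.62 ± 0.18, limma adjusted p = 0.026). In both, and also in *Nlrp4f* and *Nlrp4g*, all Bnc1tr/tr libraries lay below all WT libraries, a pattern held by 14.1% of tested genes. *Nlrp4f*, at a mean of 244 FPKM in Bnc1tr/tr and 274 FPKM in WT, and *Nlrp4g* were not called (log2 fold changes -0.16 and -0.35). Without Bnc1tr/tr replicate 2 or 3 or WT replicate 1 or 2, *Nlrp2* had log2 fold changes of -0.93 to -0.82 in limma and was no longer called (adjusted p up to 0.068) under Benjamini-Hochberg adjustment. It was also not called with no filter (limma adjusted p = 0.051). Among the fits that left out 1 library, *Nlrp5* was called only in the fit without WT replicate 3 (in the others -0.63 to -0.54, limma adjusted p up to 0.11).

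Most NLR genes of innate immunity were scarce in these oocytes. Of 16 listed, 4 had a mean of at least 1 FPKM, and the listed NLRP genes *Nlrp1a*, *Nlrp1b*, *Nlrp3*, *Nlrp6*, *Nlrp10* and *Nlrp12* were at or below 0.14 FPKM in every library. *Nlrc3*, known as a negative regulator of innate signalling, rose from 5.08, 5 and 11.61 FPKM in WT to 29.59, 15.83 and 13.26 FPKM in Bnc1tr/tr (log2 fold change 1.33 ± 0.36, limma adjusted p = 0.021). *Nod2*, a sensor of bacterial peptidoglycan, rose from 0.52, 0.66 and 1.12 FPKM to 2.48, 2.6 and 2.68 FPKM (log2 fold change 1.04 ± 0.18, limma adjusted p = 0.0024). With a WT mean of 0.767 FPKM, *Nod2* passed the filter of 1 FPKM only through the Bnc1tr/tr libraries. *Nlrc3* and *Nod2* were the called genes of this list. Both had all Bnc1tr/tr libraries above all WT libraries, as did 32.7% of all tested genes, and 24.1% of all tested genes were called higher. *Nlrc4* and *Naip1*, also inflammasome genes, were not called and 0 of the list were lower. *Nlrc4* was at 10.3 ± 3.7 FPKM in Bnc1tr/tr and 11.5 ± 1.69 FPKM in WT. *Naip1* was at 11.8 ± 1.64 and 12.8 ± 5.43 FPKM, so these 2 were not scarce. *Nlrc3* was no longer called without Bnc1tr/tr replicate 1, WT replicate 1 or WT replicate 2 (limma adjusted p 0.069, 0.058 and 0.072), nor with no filter (0.074). Under quantile normalization *Nlrc3* (1.05, limma adjusted p = 0.054) and *Nod2* (0.54, limma adjusted p = 0.05) were not called. Among 5 tested inflammasome partners and products, *Nek7*, which encodes a kinase that binds NLRP3, was called higher (6.49 ± 1.39 FPKM in WT and 12.3 ± 1.39 FPKM in Bnc1tr/tr, log2 fold change 0.84 ± 0.19, limma adjusted p = 0.01), though not under quantile normalization (0.54, adjusted p = 0.053). The cytokine gene *Il18* was called higher with overlapping groups (2.15 ± 1.69 and 6.59 ± 3.14 FPKM, log2 fold change 1.32 ± 0.40, limma adjusted p = 0.032) and was not called in 8 of 13 alternatives. The adaptor *Pycard* was at most 0.28 FPKM.

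Of 6 tested genes for proteins tied to NLRP4, NLRP9 or NLRP14, among them *Uhrf1*, *Kpna2*, *Dhx9* and *Becn1*, 0 were called in limma with Benjamini-Hochberg adjustment (lowest adjusted p 0.19) and 0 had an unadjusted limma p under 0.05. *Kpna2* was at 967.17 to 1311.25 FPKM in Bnc1tr/tr and 1024.72 to 1228.11 FPKM in WT. Of 7 tested oocyte transcription factors, 1 was called lower and 0 higher. This was *Lhx8*, a homeobox gene needed for follicle formation, at 51.28, 43.24 and 46.22 FPKM in Bnc1tr/tr and at 92.98, 77.86 and 59.3 FPKM in WT (log2 fold change -0.68 ± 0.20, limma adjusted p = 0.03). Among the fits that left out 1 library, *Lhx8* too was called only in that without WT replicate 3 (in the others -0.74 to -0.53, limma adjusted p up to 0.096). *Nobox* and *Figla*, which encode factors that drive oocyte genes, were not called (log2 fold changes 0.11 and -0.34).

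The 24 tested genes nearest to the 8 on chromosome 7 divided into 5 called higher and 3 called lower, with a median log2 fold change of 0.28. Many were not close, since starts lay from 26 kb (*Ceacam20* from *Nlrp9b*) to 3520 kb (*Zfp418* from *Nlrp4b*) apart. Those lower were *Nlrp2*, *Nlrp5*, whose start lies 84.7 kb after that of *Nlrp4e*, and the vomeronasal receptor gene *Vmn2r51* (log2 fold change -0.71). Those higher were *Cyp2g1* (2.14), *Zscan5b* (1.70), *Zfp418* (1.03), *Ppfibp2* (0.63) and *Gm5157* (0.59, log2 fold change for each). *Cyp2g1* and *Gm5157* had WT means of 0.203 and 0.99 FPKM and Bnc1tr/tr means of 5 and 2.01 FPKM. They passed the filter of 1 FPKM only through the Bnc1tr/tr libraries, so they could enter the test only with a higher Bnc1tr/tr mean. Next to the cluster of *Nlrp9c*, *Nlrp4a* and *Nlrp9a*, the P450 genes *Cyp2a4*, *Cyp2b13* and *Cyp2b23* were not called and *Cyp2g1* was higher. These counts stand beside 24.1% higher and 7.68% lower of all tested genes. Without 1 library the calls of *Ppfibp2* and *Gm5157* were lost in 5 of 6 cases each, and that of *Vmn2r51* was lost without Bnc1tr/tr replicate 1 or WT replicate 2. Under quantile normalization *Ppfibp2*, *Gm5157* and *Zfp418* were not called (limma adjusted p 0.055, 0.73 and 0.08).

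Genes whose levels ran most like those of 2 members over the 6 libraries were found by the root-mean-square difference of centred log2(FPKM + 1). The nearest to *Nlrp14* were *Primpol* (0.0478), *Lhx8* (0.0673) and *Mcm6* (0.0707), all with WT replicate 3 lowest of the WT libraries. *Primpol* was low, at 1.09 ± 0.0551 FPKM in Bnc1tr/tr and 2.43 ± 0.87 FPKM in WT, where log2(FPKM + 1) understates a change. The log2 fold change of *Primpol* was -0.68 as reported and -1.03 with a pseudocount of 0.1. *Mcm6* was at 24 ± 1.39 FPKM in Bnc1tr/tr and 35.8 ± 8.5 FPKM in WT. The nearest to *Nlrp4e* were *Gm7762* (0.0935), *Tmem53* (0.136) and *C87977* (0.144), which had log2 fold changes of -1.52, -1.21 and -1.53. *C87977* was at 274.52, 292.67 and 194.58 FPKM in Bnc1tr/tr and at 709.91, 737.94 and 729.74 FPKM in WT, tight in WT as *Nlrp4e* was. The likeness rests on shared libraries and on the genotype difference itself.

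Most markers of other ovarian cells were low, and *Cyp19a1* was an exception. Of 9 listed granulosa and cumulus markers 4 were tested, of which 2 were called higher and 0 lower, beside 24.1% higher and 7.68% lower of all tested genes. *Fshr*, the receptor of follicle-stimulating hormone, was at 4.54, 5.83 and 5.37 FPKM in Bnc1tr/tr and at 0.31, 0.74 and 0 FPKM in WT (log2 fold change 2.24 ± 0.22, limma adjusted p = 0.00011), and *Kitl* at 2.46 ± 0.59 and 1.14 ± 0.0321 FPKM. With a WT mean of 0.35 FPKM, *Fshr* passed the filter of 1 FPKM only through the Bnc1tr/tr libraries. *Inha*, which was not called, was at 0.693 ± 0.968 FPKM in Bnc1tr/tr and 3.42 ± 3.37 FPKM in WT, and *Hsd17b1*, which was not tested, at 0.197 ± 0.19 and 0.787 ± 0.726 FPKM. The sum over the 9 was 36.2 to 55.2 FPKM in Bnc1tr/tr and 19 to 36.1 FPKM in WT, most of it from *Cyp19a1*. *Cyp19a1*, which was not called, was at 35.1 ± 8.58 FPKM in Bnc1tr/tr and 23.3 ± 5.79 FPKM in WT. In every library it lay above the oocyte marker *Ddx4*. *Foxl2*, *Amhr2* and *Has2* were at or below 0.21 FPKM in every library. The 5 listed theca and stroma markers summed to 1.04 to 2.07 FPKM in Bnc1tr/tr and 0.18 to 0.82 FPKM in WT. The 5 immune markers summed to 1.76 to 52 FPKM in Bnc1tr/tr, where *Lyz2* reached 47.97 FPKM in replicate 2 and *Cd68* 12.2 FPKM in replicate 1, and to 1.39 to 2.94 FPKM in WT, with *Ptprc* at or below 0.3 FPKM. *Adgre1* and *Cd3e*, which were not tested, were at 0.103 ± 0.0231 and 0.407 ± 0.231 FPKM in Bnc1tr/tr. Both were at 0 FPKM in every WT library. The part of these markers in the results on the NLRP genes was not tested.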

How the data were processed

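Bnc1tr/tr and WT oocyte libraries (3 each) were compared. The authors deposited a table of FPKM values per library for the same 17577 genes, rounded to 2 decimals. The submitters' processing notes name HISAT2 2.0.4, Bowtie2 2.2.5, RSEM 1.2.12 and GRCm38.p6. Symbols that a spreadsheet had turned into dates (25) were restored by NCBI Gene ID. No counts or library totals were used. Depth is an estimate, read off the spacing of small FPKM values, and entered no test, and amplified cDNA without molecular identifiers limits what counting error covers.

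The genotype contrast was fitted on log2(FPKM + 1) by limma 3.58.1 (R 4.3.3) over the 10560 genes whose 6-library mean reached 1 FPKM, with Benjamini-Hochberg adjustment over all of them. Fold changes are on that scale, which understates low genes. Calls needed an adjusted p under 0.05 together with a log2 change of more than 0.5 in size, thresholds the study names for oocytes. Coding sequences and 31-base words came from GENCODE M21 and promoters from RefSeq, analysed with Python 3.11.15 and Biopython 1.88. Figures were drawn with matplotlib 3.10.9.

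Alternatives were a pseudocount of 0.1, no filter, a minimum mean of 5 FPKM, upper-quartile, median-ratio and quantile scaling, trend and robust variances, a replicate block, a fold threshold of 1 and leaving out each library. Members and gene lists were chosen with earlier results of these data known. Named genes were the 8 members, *Bnc1*, every called gene of the lists, and the 3 genes nearest in profile to the most abundant and to the most changed member. A few other list genes were named after their values were seen.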

Additional observations from a re-analysis of the deposited data

How the results depend on the processing

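Across 14 alternatives, *Nlrp4e*, *Nlrp4b* and *Nlrp9a* kept their direction and their adjusted p under 0.05 (at most 0.0089, 0.031 and 0.031 in limma), as did *Bnc1* (at most 0.037), while *Nlrp4a* was never called. The count of members called lower was 5, or 3 to 5 without 1 library and 1 with a fold threshold of 1. *Nlrp9c* was lost without any 1 library (log2 fold changes -0.65 to -0.48). *Nlrp14* was not called with log2(FPKM + 0.1) (-0.65), no filter (-0.65) or quantile normalization (-0.58), and ran from -0.85 to -0.48 without 1 library. *Nlrp9b* was called with median-ratio scaling (-0.69), reached a limma adjusted p of 0.046 at -0.47 with trend and robust variances, and ran from -0.56 to -0.34 without 1 library. *Nlrp4c* turned to -0.03 under quantile normalization and ran from -0.01 to 0.47 without 1 library. Why these values moved was not tested. Over all genes, calls higher numbered 1413 with a minimum mean of 5 FPKM (fewer genes tested), 1637 under quantile normalization and 1418 with a fold threshold of 1, beside 2547 as reported. Calls lower numbered 1542 under median-ratio scaling, 1877 under quantile normalization, 259 with a fold threshold of 1 and 416 to 1037 without 1 library, beside 811 as reported. Where 1 library is left out, a genotype has fewer samples and the test less power.

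The labels number the libraries 1 to 3 in both genotypes. The deviations of same-numbered libraries correlated across genes at 0.28, -0.03 and 0.12, and those of differently numbered libraries at -0.25 to 0.16. Deviations from a group mean sum to 0 within the group, so these values cannot decide whether the numbers pair samples. The labels state no pairing, and the main fit assumed none. With the replicate number as a block, 5 members were called lower and 0 higher, and all genes gave 2781 higher and 952 lower. The block left the log2 fold changes as they were (-1.36 for *Nlrp4e*, -0.65 for *Nlrp14*) and changed no call of a member.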
